A study of Homo sapiens with 10 samples.

Results

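The regions described here are distal sites at which C4-2B cells had an H3K27ac peak, C4-2BER cells had none, and both cell lines had an H3K18ac peak. They were chosen by the called peaks: a C4-2B H3K27ac peak was taken where it overlapped no C4-2BER H3K27ac peak, overlapped an H3K18ac peak of each cell line by at least 1 bp, and lay more than 2000 bp from every transcription start site (TSS) of a protein-coding or lncRNA gene. The rule found 8991 regions among 68034 C4-2B H3K27ac peaks, or 13.2% (95% Wilson interval 13.0 to 13.5). They are called lost regions below, which means that no C4-2BER H3K27ac peak was called there, not that the mark was absent.

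C4-2B cells come from prostate adenocarcinoma that grows despite castration. C4-2BER cells are their neuroendocrine-like derivative, obtained by keeping C4-2B in enzalutamide, an antiandrogen drug, so that each cell line stands for 1 lineage. Both histone marks were profiled by ChIP-Seq, which sequences the DNA that an antibody to the mark brings down, in 2 libraries per mark and cell line with 1 input library per cell line. Cells of both lines were crosslinked with disuccinimidyl glutarate and then formaldehyde. The authors merged the libraries of a mark before calling peaks, so every value below is 1 value per region and cell line with no replicate error, the depth is unknown, and no difference between the cell lines could be tested. Intervals of shares reflect counting error alone, and those of medians the spread among regions.

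Acetylation of histone H3 at lysine 27 and at lysine 18 is laid down mainly by the related acetyltransferases p300 and CBP, and is removed by histone deacetylases. Both marks sit on nucleosomes beside active promoters and enhancers and are bound or followed by factors that promote transcription. H3K27ac is the mark commonly used to tell an active distal enhancer from a primed one, while H3K18ac is less often mapped and usually covers the same sites.

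As a check of the cell line labels, the promoters (2000 bp to each side of a TSS) of the luminal marker genes KLK3, KLK2, TMPRSS2, FOXA1 and HOXB13 carried an H3K27ac peak in both cell lines, with fold enrichments of 20.3 to 29.0 in C4-2B and 13.8 to 20.03 in C4-2BER. Among neuroendocrine markers, CHGA and INSM1 had no H3K27ac promoter peak in either cell line, SYP went from 24.0 in C4-2B to 5.67 in C4-2BER, and ENO2 from 4.00 to 14.3. The H3K27ac of C4-2BER thus kept these luminal markers, and of these neuroendocrine ones only ENO2 was higher than in C4-2B. The part of cell identity in the results below was not tested.

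Sequences of the 2 lost regions with the strongest H3K27ac in C4-2B are shown because they are where the mark was highest before it was no longer called. They are the central 200 bases of each peak on the plus strand of GRCh38, and capitals mark any match to the short motifs searched. The first, chr13:62512882-62513081, held no match, and the second, chr14:25681017-25681216, held an E-box.
Chromosome 13 region: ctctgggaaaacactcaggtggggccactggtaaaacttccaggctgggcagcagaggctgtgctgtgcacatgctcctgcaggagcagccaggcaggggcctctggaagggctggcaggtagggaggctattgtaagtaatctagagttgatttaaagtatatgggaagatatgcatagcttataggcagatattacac
Chromosome 14 region: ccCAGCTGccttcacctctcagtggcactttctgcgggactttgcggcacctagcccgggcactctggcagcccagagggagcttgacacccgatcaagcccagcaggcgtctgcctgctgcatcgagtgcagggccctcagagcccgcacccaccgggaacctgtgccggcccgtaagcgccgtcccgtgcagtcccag

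Fold enrichment is the authors' ratio of the pulled-down signal to the local background of the same list, and the H3K18ac value of a region is the mean over the H3K18ac peaks it overlapped, weighted by the overlap. Such a ratio is scaled within its list, so a difference between the cell lines also carries a difference in their backgrounds.

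Loss of the H3K27ac call was common. Most distal peaks that lost it had an H3K18ac peak in both cell lines, but less often than distal peaks as a whole. Of all C4-2B H3K27ac peaks, 18251 overlapped no C4-2BER peak (26.8%), and among the 42385 distal peaks 14031 did not (33.1%). The lost regions were 64.1% of those 14031 (interval 63.3 to 64.9). Over all 42385 distal peaks, 35260 stood on H3K18ac of both cell lines, which is a larger share. Of the rest, 3520 had H3K18ac in C4-2B alone, 247 in C4-2BER alone and 1273 in neither cell line. Of the C4-2B H3K18ac peaks, 57629 of 198451 had no C4-2BER peak, or 29%. A further 2045 peaks met the rule on the marks but lay within 2000 bp of a TSS and were left out.

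Other sets of peaks served for comparison. Kept peaks are the 26269 distal C4-2B H3K27ac peaks with both marks in both cell lines. Peaks that lost both marks are the 3520 with H3K18ac in C4-2B alone. The mirrored set holds the 12312 distal C4-2BER H3K27ac peaks without a C4-2B peak on H3K18ac of both cell lines, which made up 33.6% of the distal C4-2BER H3K27ac peaks on shared H3K18ac. The share for the lost regions in the other direction was 25.5% (interval 25.05 to 25.96). A change in which H3K27ac was called in 1 cell line alone on H3K18ac called in both therefore occurred in both directions. It was more often a C4-2BER call alone. The C4-2BER H3K27ac list was also longer, at 72971 peaks against 68034, and reached lower folds. The part of this in the difference was not tested.

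The lost regions were weak H3K27ac peaks. Their fold enrichment in C4-2B had a median of 2.65, with quartiles at 2.41 and 3.14 and a range of 1.93 to 19.1, against a median of 3.75 for kept peaks and 2.56 for peaks that lost both marks. Their median width was 492 bp against 1023 bp for kept peaks. Of the lost regions, 83.0% lay under the median of all C4-2B H3K27ac peaks, and 956 (10.6%) reached a fold of 4, which 45.2% of kept peaks did. The mirrored regions were as weak in C4-2BER, with a median of 2.52. The rule used the C4-2B H3K27ac calls, so these values describe what it took.

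**Figure D1:**
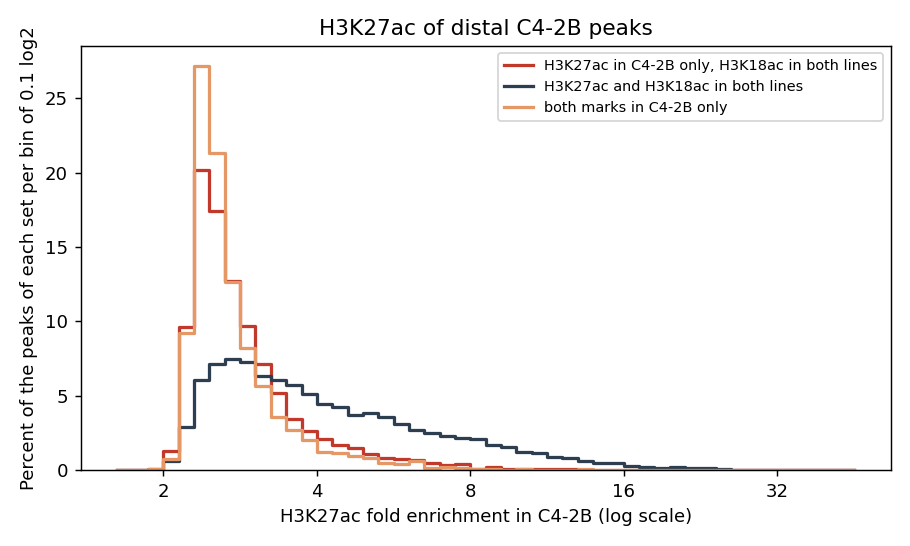
H3K27ac fold enrichment in C4-2B (log scale) against the percent of peaks of each set per bin of 0.1 log2, for the lost regions, the kept peaks and the peaks that lost both marks. The lost regions and the peaks that lost both marks crowd at low folds around their medians of 2.65 and 2.56, while kept peaks spread to higher folds around 3.75.

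The lowest folds that were called differed between the cell lines, with a 5th percentile of 2.29 in the C4-2B H3K27ac list and 2.13 in the C4-2BER list. Peaks were thus called at lower folds in C4-2BER than in C4-2B, and 794 lost regions (8.83%) had at least 2 times the C4-2BER 5th percentile in C4-2B. At the edge of the rule, the closest lost region lay 1 bp from a C4-2BER H3K27ac peak and had a fold of 2.41, while a kept peak with a 1 bp overlap had 2.46. There were 77 lost regions under 100 bp from a C4-2BER peak, beside 172 kept peaks overlapped by under 100 bp. The lost region nearest to a TSS lay at 2002 bp, and the nearest peak left out for its distance at 2000 bp.

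H3K18ac was retained as a peak, but it was lower in C4-2BER at most lost regions. The median H3K18ac fold enrichment was 3.31 in C4-2B (quartiles 2.91 and 3.93) and 2.62 in C4-2BER (quartiles 2.35 and 3.02). The log2 ratio of C4-2BER to C4-2B, taken region by region, had a median of -0.31 (interval -0.32 to -0.31) and quartiles of -0.52 and -0.13. H3K18ac was lower in C4-2BER at 86.8% of lost regions, against 63.9% of all H3K18ac peaks shared by the cell lines and 52.9% at kept peaks. At kept peaks the median log2 ratio was -0.02, and in the mirrored set it was 0.14, with 32.8% lower.

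The rule used the presence of the H3K18ac peaks and not their height. A C4-2BER level below the calling limit would have taken a region out, so the H3K18ac values are a description of regions that kept a call. When the log2 ratio was taken relative to the trend over all shared H3K18ac peaks, whose median was -0.11 before rescaling, the lost regions had a median of -0.23 and the mirrored regions 0.23, with 0.10 at kept peaks. On that scale 79.3% of lost regions, 38.3% of kept peaks and 23.1% of mirrored regions were lower in C4-2BER. In both directions, H3K18ac was lower in the cell line without the H3K27ac call.

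**Figure D2:**
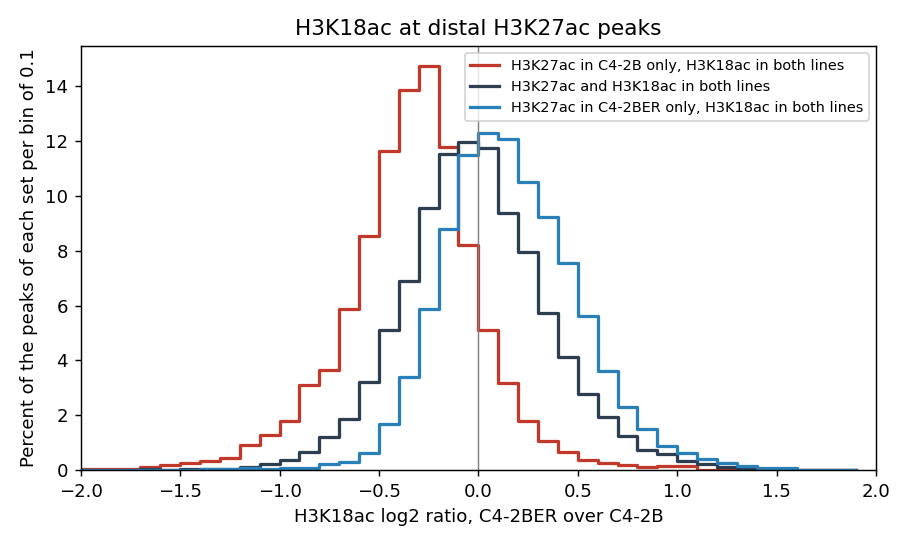
H3K18ac log2 ratio of C4-2BER to C4-2B against the percent of peaks of each set per bin of 0.1, for lost regions, kept peaks and the mirrored set. The lost regions are centred left of 0 at -0.31, kept peaks near 0 at -0.02 and mirrored regions right of 0 at 0.14.

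The differences in H3K18ac were small at most regions. It was at least 2-fold lower in C4-2BER at 330 lost regions (3.67%, interval 3.30 to 4.08), against 0.575% of kept peaks and 0.499% of all shared H3K18ac peaks. It was at least 2-fold higher at 25 lost regions (0.278%), against 1.08% of all shared peaks. The extent of the mark also differed. H3K18ac covered the whole H3K27ac peak at 74.3% of lost regions in C4-2B and at 53.6% in C4-2BER, whereas at kept peaks the order was the other way, with 54.1% in C4-2B and 70.4% in C4-2BER.

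The stronger a region was for H3K27ac in C4-2B, the less often it was lost, and the lower its C4-2BER H3K18ac was relative to C4-2B when it was. The 35260 distal C4-2B H3K27ac peaks on H3K18ac of both cell lines were split into 4 equal groups by H3K27ac fold, at 2.64, 3.32 and 5.01. The share without a C4-2BER H3K27ac peak was 49.7% in the weakest group, then 31.7%, 15.3% and 5.25% in the strongest. The median H3K18ac log2 ratio of the lost regions was -0.25, -0.33, -0.47 and -0.78 in the same order, while for kept peaks it was 0.04, 0.02, -0.002 and -0.12. The lost regions' median H3K18ac was 3.07, 3.38, 3.83 and 5.02 in C4-2B. In C4-2BER it was 2.53, 2.65, 2.77 and 2.88. A lost region had to keep a C4-2BER H3K18ac call, so regions with low C4-2B H3K18ac had less room to be lower. How far this shaped the trend was not tested.

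In the strongest of the 4 groups, the 463 lost regions and the kept peaks had like H3K18ac in C4-2B, with medians of 5.02 and 4.87. In C4-2BER the lost regions had 2.88 and the kept peaks 4.52. H3K18ac was at least 2-fold lower at 26.8% of these lost regions and at 1.07% of kept peaks. Among the 100 strongest lost regions the median went from 6.13 to 2.98 and 52 were at least 2-fold lower. The median of the whole C4-2BER H3K18ac list was 2.55.

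**Figure D3:**
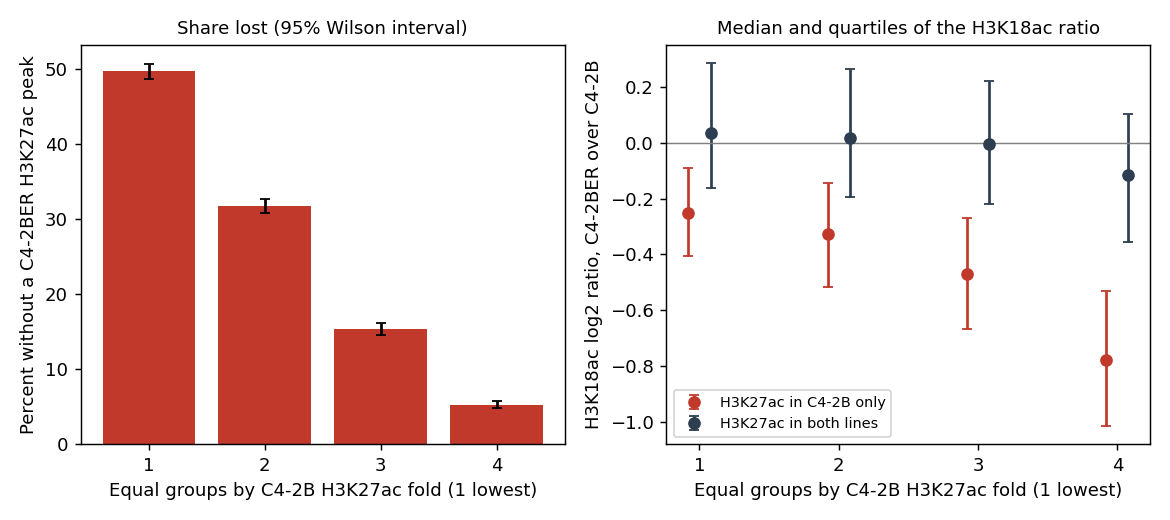
The left panel shows, for 4 equal groups by C4-2B H3K27ac fold, the percent of distal peaks on shared H3K18ac that had no C4-2BER H3K27ac peak, with 95% Wilson intervals. The right panel shows the median and quartiles of the H3K18ac log2 ratio for lost regions and kept peaks, and the lost share goes from 49.7% to 5.25% while the lost regions' median ratio goes from -0.25 to -0.78.

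The strongest lost region lay on chromosome 13 at chr13:62511163-62514801, in intergenic sequence 1083314 bp from the nearest protein-coding TSS, which is annotated as ENSG00000197991. Its H3K27ac fold in C4-2B was 19.1 over 3639 bp, and the nearest C4-2BER H3K27ac peak was 836112 bp away. H3K18ac there was 10.1 in C4-2B and 4.30 in C4-2BER, and it covered 40.2% and 18.4% of the H3K27ac peak. The second lay at chr14:25680790-25681443 in an intron of the lncRNA LINC02306. The nearest protein-coding TSS was that of STXBP6, a regulator of vesicle fusion, 630643 bp away. This second region had an H3K27ac fold of 17.6, and its H3K18ac was 10.7 in C4-2B and 4.99 in C4-2BER.

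The third, at chr7:106671707-106672552 in an intron of a lncRNA, was 10549 bp from the TSS of CCDC71L. Its H3K27ac fold was 16.5 and its H3K18ac went from 10.1 to 3.23, although a C4-2BER H3K27ac peak lay 10238 bp away. The fourth, at chr15:64288776-64289384, lay in an intron of CSNK1G1, a casein kinase gene, with an H3K27ac fold of 15.9 and H3K18ac of 8.35 in C4-2B and 2.76 in C4-2BER. The next 4 lay near or in RPS6KA6, AFF3, ADGRG6 and SMARCA1, with H3K27ac folds of 15.5, 15.5, 14.8 and 14.6. AFF3 encodes a subunit of a transcription elongation complex, ADGRG6 an adhesion G protein-coupled receptor and SMARCA1 an ISWI chromatin remodeller. All 8 had lower H3K18ac in C4-2BER, from 1.65-fold lower near SMARCA1 to 3.12-fold lower near CCDC71L.

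**Figure D4:**
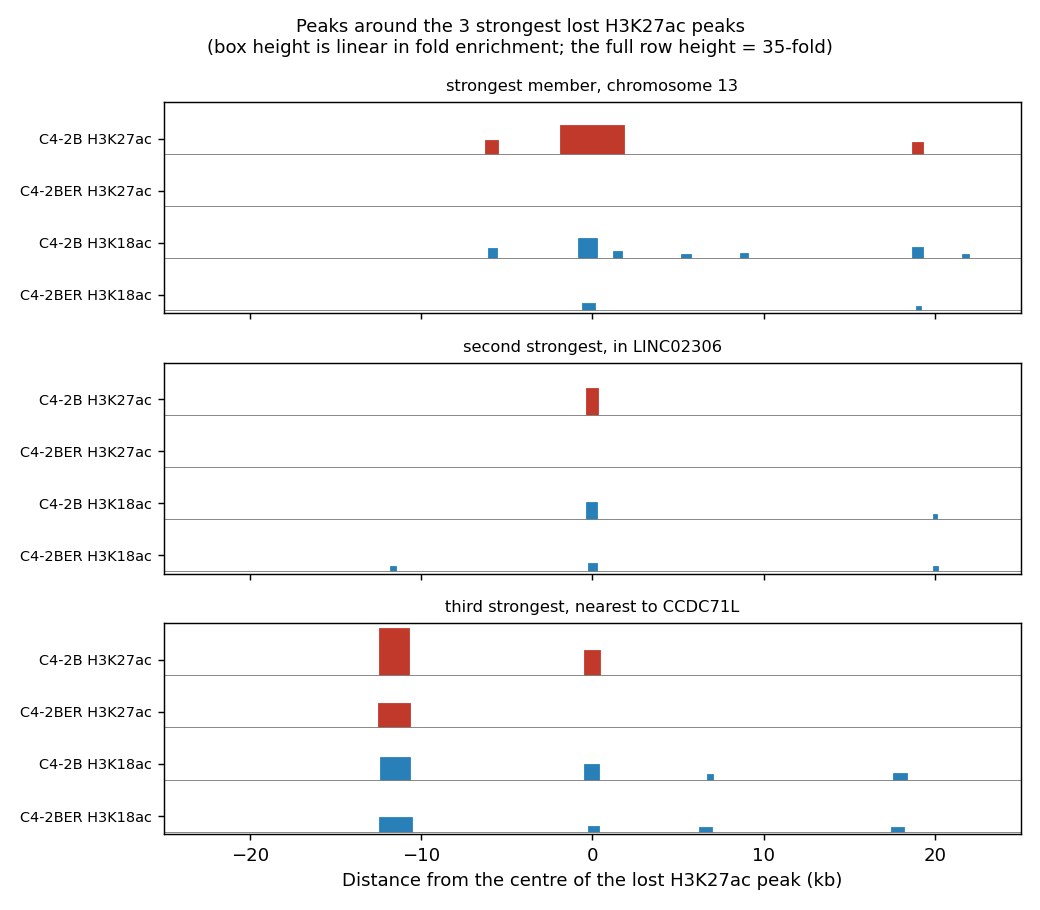
Called H3K27ac and H3K18ac peaks of each cell line within 25 kb of the centre of the 3 strongest lost regions. The x axis is the distance from the centre in kb, box width is peak width and box height is linear in fold enrichment. At each centre there is a box in every row but that of C4-2BER H3K27ac, and the C4-2BER H3K18ac box is lower than that of C4-2B.

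Most lost regions stood on an H3K18ac peak that carried no H3K27ac in C4-2BER at all, as did most C4-2BER H3K18ac peaks, of which 33.4% overlapped a C4-2BER H3K27ac peak. At 7545 regions, no C4-2BER H3K27ac peak lay on the C4-2BER H3K18ac peak of the region, and their median H3K18ac log2 ratio was -0.35. At the other 1446 (16.1%, interval 15.3 to 16.9), H3K27ac was called elsewhere on the same H3K18ac peak, and there the median was -0.08. Those H3K18ac peaks were broad, with a median of 6427 bp against 1007 bp. In the mirrored set, 8.20% of regions had C4-2B H3K27ac elsewhere on the C4-2B H3K18ac peak.

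Distance to the nearest C4-2BER H3K27ac peak moved with the H3K18ac ratio. Its median was 7013 bp. The 572 lost regions within 1000 bp had a median log2 ratio of -0.13, the 3148 from there to 5000 bp -0.28, the 2987 from there to 20000 bp -0.33, the 1732 from there to 100000 bp -0.36, and the 552 beyond that -0.47. The median H3K27ac fold in C4-2B was 2.50 in the nearest group and 3.04 in the farthest. The 1446 regions with H3K27ac elsewhere on the same C4-2BER H3K18ac peak had a median distance of 1319.5 bp. Their C4-2BER H3K18ac value is that of the whole peak, so this trend is not separate from the result above. Farthest of all was a region at chr1:191595944-191596695, 1071609 bp away, whose nearest gene is RGS18, a regulator of G protein signalling. It had an H3K27ac fold of 2.62 and H3K18ac of 3.94 in C4-2B and 2.52 in C4-2BER. The next 3 lay together on chromosome 1, 984727 to 995898 bp from C4-2BER H3K27ac and nearest to PLA2G4A, a phospholipase gene, with H3K18ac of 3.56 to 4.02 in C4-2B and 2.39 to 2.59 in C4-2BER.

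Where H3K18ac differed most, the H3K18ac peaks of the cell lines differed in width, so that a region took the mean of a broad peak in one cell line and of a narrow one in the other. The largest ratio in favour of C4-2B was at chr10:77641030-77641541, 2661 bp from the TSS of KCNMA1. H3K18ac was 12.1 on a peak of 5775 bp in C4-2B and 2.04 on a peak of 251 bp in C4-2BER, while the H3K27ac fold in C4-2B was 3.33. Near DGCR6L it went from 8.43 to 2.23, and near TEDC1 from 8.81 on a peak of 46076 bp to 2.35 on one of 6617 bp. In intergenic sequence at chr2:183546521-183547407, 422063 bp from the TSS of NUP35, a nuclear pore gene, the H3K27ac fold was 14.3. H3K18ac there went from 10.6 to 2.81.

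The largest ratios in favour of C4-2BER were at weak H3K27ac peaks. H3K18ac went from 2.298 to 7.50 in an intron of DNASE1, from 2.69 to 7.91 in SEMA4B, from 2.74 to 7.30 in ACSBG1 and from 2.45 to 6.36 near TBKBP1. In all 4, the C4-2BER H3K18ac peak was wide, from 5491 bp near TBKBP1 to 32549 bp at ACSBG1, and carried C4-2BER H3K27ac elsewhere. The highest C4-2BER H3K18ac at any lost region was 10.2, near CTBP2, a transcriptional corepressor, where C4-2B had 11.7. An intergenic region nearest to IRAK1BP1 came next, at 8.07 in C4-2BER and 5.55 in C4-2B.

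Short motifs of transcription factors were counted in the central 500 bases of each region, on both strands. The forkhead motif TGTTTAC, bound by FOXA1, was in 8.46% of lost regions and 9.75% of kept peaks, the GATA motif AGATAA in 15.8% and 20.6%, and the AP-1 motif TGANTCA in 11.8% and 14.3%. The HOXB13 motif CCAATAAA was in 1.49% and 1.99%. The ETS motif CCGGAAGT was in 0.556% and 0.601%. The E-box CAGCTG was in 30.6% and 26.9%, and the CTCF core in 9.63% and 9.49%. Taken without regard to base composition and strength, these shares were lower at lost regions but for the E-box and CTCF.

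Base composition and strength of the peaks moved with these shares. Lost regions had a median GC content of 55.1%, kept and mirrored peaks 50.9%, and peaks that lost both marks 55.9%. Among the distal peaks on shared H3K18ac, the share lost was 16.3% in the lowest of 10 equal groups by GC content and 48.5% in the highest. This order went with weak peaks. In the weakest of the 4 groups by H3K27ac fold, lost regions had 57.3% GC and kept peaks 53.7%, while in the strongest the order was turned, at 46.1% and 48.6%. Within the 10 groups by GC content the lost regions' median H3K18ac log2 ratio stayed between -0.34 and -0.27, while that of kept peaks went from -0.003 in the lowest to -0.15 in the highest, so lost and kept lay closer at high GC. In 5 equal groups by GC content, the CTCF core was less frequent in lost regions than in kept peaks in all 5, from 2.29% against 2.65% at the lowest GC to 17.9% against 24.0% at the highest, and the E-box in the lower 4, with 48.1% against 42.8% in the highest. The GATA motif differed little there, with 18.46% against 18.50% in the middle group and 14.6% against 13.9% in the next. By strength, the forkhead motif was less frequent in lost regions in the weakest of the 4 groups alone, at 6.44% against 7.46%, and more frequent in the others, at 9.55% against 8.91%, 11.01% against 10.57% and 13.6% against 10.8%. By GC content, from the lowest of the 5 groups, it was 10.4% against 11.5%, 8.42% against 9.56% and 7.33% against 8.06%. In the next group it was more frequent in lost regions, at 15.0% against 12.9%, and in the highest less, at 4.06% against 5.65%. These counts by strength and GC content include the recurrent sequence described below. How far the lower forkhead share over all lost regions went with their weakness was not tested.

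**Figure D5:**
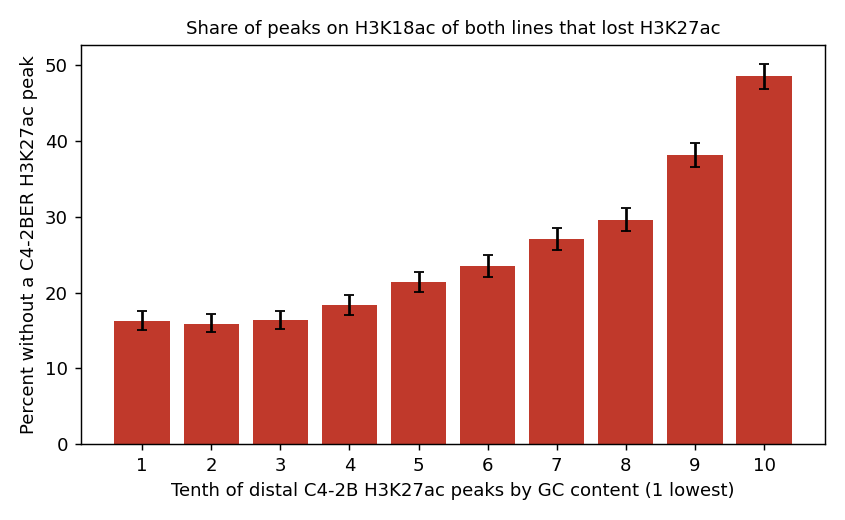
Percent of distal C4-2B H3K27ac peaks on H3K18ac of both cell lines that had no C4-2BER H3K27ac peak, in 10 equal groups by GC content from lowest to highest, with 95% Wilson intervals. The share is 16.3% in the group with the least GC and 48.5% in that with the most.

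The grainyhead motif AACCGGTT was rare, and rarer in lost regions than in kept peaks. Grainyhead factors such as GRHL2 hold epithelial enhancers open. The motif was in 3 of 8991 lost regions (0.033%, interval 0.011 to 0.098) and in 51 of 26269 kept peaks (0.194%, interval 0.148 to 0.255), and in the mirrored set in 11 of 12312 (0.089%). Peaks that lost both marks had it as rarely as the lost regions, in 1 of 3520 (0.028%). The share was lower in lost regions than in kept peaks in each of 5 equal groups by GC content, although in each group the lost regions held at most 1 match. Binding of these factors was not measured.

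Of the lost regions with a forkhead match, 26.0% held it within 1 repeated sequence, found by counting the 3 bases to each side of the motif. It is shown because it sets part of the forkhead share above, with the motif in capitals.
Recurrent forkhead sequence: cttTGTTTACcta
These 13 bases were around 198 of the 779 forkhead matches in lost regions, the next most frequent surroundings being around 24, and they occurred 5925 times in GRCh38. From general knowledge, not checked here against a repeat annotation, this stretch belongs to the start of LINE-1 retrotransposons, which are present in many near-identical copies, so that reads in them can be assigned to the wrong copy. It was in 2.202% of lost regions (interval 1.92 to 2.53), 1.55% of kept peaks (1.41 to 1.71), 1.25% of peaks that lost both marks and 1.64% of mirrored regions. Without it, the forkhead motif was in 6.26% of lost regions and 8.20% of kept peaks.

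The lost regions with the recurrent sequence had a lower H3K18ac ratio than the lost regions as a whole. Their median log2 ratio was -0.52 against -0.31, with 190 of 198 lower in C4-2BER, whereas kept peaks with the sequence had -0.16. Their median H3K27ac fold was 2.89, and 6 of the 100 strongest lost regions held the sequence, against 0 of the 100 strongest kept peaks, which allows a share of up to 3.70% by the Wilson interval. These sets of 100 were not alike in strength or base composition, with a median GC content of 46% and 64.9% in the central 500 bases. Kept peaks with the sequence reached an H3K27ac fold of 22.2. The strongest lost region with the sequence, at chr13:61628654-61629543, had an H3K27ac fold of 10.0 and H3K18ac of 6.15 in C4-2B and 2.47 in C4-2BER. At chr11:116666846-116667434, with BUD13 as the nearest protein-coding gene, H3K27ac was 9.25 and H3K18ac went from 6.77 to 2.27. The part of misassigned reads in these values was not tested.

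By annotation, 49.1% of lost regions lay in introns of protein-coding genes, 9.89% in introns of lncRNA genes, 4.62% in exons and 36.3% between genes. Kept peaks had 52.3%, 9.20%, 4.64% and 33.8%, so the places were alike, while peaks that lost both marks lay more often in exons, at 11.8%. The median distance to a TSS was 15275 bp at lost regions and 12966 bp at kept peaks. By chromosome, the lost share of distal peaks on shared H3K18ac ran from 17.4% on X and 18.5% on 19 to 29.3% on 13.

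Androgen-induced genes had more lost regions than their share of distal peaks. Each region was given to the protein-coding gene with the nearest TSS. Of the 233 distal C4-2B H3K27ac peaks nearest to the 30 listed genes, 72 were lost regions (30.9%), against 21.2% over all distal peaks, and 20 of the 30 genes had at least 1. This list and those below were not compared at like H3K27ac strength, with which the lost share moved. H3K18ac was lower in C4-2BER at 62 of the 72, with a median log2 ratio of -0.31, and at the kept peaks of the same genes the median was 0.02. Over all lost regions it was lower at 86.8%, with a median of -0.31, and over all kept peaks the median was -0.02. In H3K18ac the lost regions of these genes were thus like the rest, and the counts for lists and genes below are to be read beside that share.

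FKBP5, a co-chaperone of steroid receptors and a classical androgen-induced gene, had 10 lost regions among 17 distal peaks, 3 kept peaks and no mirrored region. They lay from chr6:35612001-35616203 to chr6:35698159-35698393, with H3K27ac folds of 2.34 to 4.61 in C4-2B. At the strongest, H3K18ac was 3.45 in C4-2B and 2.24 in C4-2BER, where it covered 19.2% of the H3K27ac peak. It was lower in C4-2BER at 9 of the 10, the exception going from 3.46 to 3.98. FKBP5 and PMEPA1 were picked for this detail after their values were seen.

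PMEPA1, an androgen-induced membrane protein that restrains TGF-beta signalling, had 10 lost regions among 16 distal peaks. H3K18ac was lower at all 10, with log2 ratios of -0.89 to -0.16. A run of 6 of them, at chr20:57777515-57804158, formed a stretch with no C4-2BER H3K27ac peak in between, in which H3K27ac was 2.38 to 3.71 in C4-2B. MAF, a transcription factor gene, had 7 lost regions of 11 distal peaks, ELL2, a transcription elongation factor gene, 6 of 12 and ABCC4, a transporter gene, 8 of 30. TMPRSS2, by contrast, had 2 of 16, so the listed genes were uneven.

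The strongest lost regions of this list were in introns of ABCC4, EAF2 and HERC3. The ABCC4 region, chr13:95129650-95130182, had an H3K27ac fold of 7.20, and H3K18ac of 4.41 in C4-2B and 3.77 in C4-2BER. In EAF2, a partner of ELL elongation factors, H3K27ac was 6.69 and H3K18ac went from 5.53 to 2.51. In HERC3, a ubiquitin ligase gene, H3K27ac was 6.52 and H3K18ac went from 5.03 to 2.89. Those nearest to MAF and ELL2 had 5.84 and 5.18 for H3K27ac, with H3K18ac of 4.30 in C4-2B and 3.93 in C4-2BER at MAF and 4.07 and 2.91 at ELL2.

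Genes of luminal epithelial identity had fewer. Of 136 distal peaks nearest to 23 listed genes, 14 were lost regions (10.3%, against 21.2% over all distal peaks) and 104 were kept. GRHL2 had 2 lost regions of 35 distal peaks and 32 kept. GATA3, a luminal transcription factor, stood apart with 5 lost regions of 11. The strongest, at chr10:8012062-8014976 in an intron of the neighbouring TAF3, had H3K27ac of 4.55 and H3K18ac of 4.24 in C4-2B and 2.60 in C4-2BER.

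Neuroendocrine genes had 8 lost regions among 40 distal peaks (20%), close to the 21.2% over all distal peaks. The strongest, at chr20:22295703-22297267, was nearest to FOXA2, a pioneer factor of endoderm and of neuroendocrine prostate tumours, though 287305 bp from its TSS. H3K27ac there was 6.87, and H3K18ac was 6.72 in C4-2B and 2.83 in C4-2BER. Near POU3F2, a neural transcription factor, a region in an exon of FBXL4 had H3K27ac of 5.95 and H3K18ac of 4.11 in C4-2B and 4.26 in C4-2BER, the only one of the 8 without a lower value in C4-2BER. One near SOX2, in an intron of SOX2-OT, had H3K27ac of 3.62 and H3K18ac of 4.28 and 2.80. PAX5, a transcription factor of B cells and of the developing midbrain, had 2 lost regions, 3 kept peaks and 3 mirrored regions. The stronger lost one, chr9:37046516-37046815, had H3K27ac of 2.62 and H3K18ac of 5.14 in C4-2B and 2.91 in C4-2BER.

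Neuronal adhesion and axon guidance genes had 60 lost regions of 279 distal peaks (21.5%), close to the 21.2% over all distal peaks. H3K18ac was lower at 49 of the 60, against 86.8% of all lost regions. ROBO1, a receptor of the SLIT guidance cues, had 6 lost regions of 15 distal peaks. These lay 83856 to 484124 bp from the nearest protein-coding TSS. All 6 had lower H3K18ac in C4-2BER, with log2 ratios of -1.36 to -0.29 and H3K27ac folds of 2.55 to 8.60. CNTN1, an adhesion molecule of axons, had 4 of 6. The strongest in the list was in its intron, at chr12:41049828-41052162, with H3K27ac of 10.2 and H3K18ac of 6.64 in C4-2B and 3.59 in C4-2BER. UNC5D, a netrin receptor, had 5 of 7, and the strongest, in its intron, had H3K27ac of 7.71 and H3K18ac of 6.31 and 2.47. The listed genes were uneven, since NLGN1 had only 2 lost regions of 20 distal peaks, SEMA3C 1 of 12 and EFNA5 3 of 62. NLGN1 had 22 mirrored regions and SEMA3C 16.

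Genes of acetyl writers, erasers and readers had 35 lost regions of 147 distal peaks (23.8%), near the 21.2% over all distal peaks. H3K18ac was lower at 33 of the 35, against 86.8% of all lost regions. HDAC4, a class IIa deacetylase, had 9 of 27, and CREBBP, which encodes CBP, had 2 of 9. EP300 had none of 3. The strongest of them was near KAT6B, a lysine acetyltransferase gene, which had regions with H3K27ac of 4.25, 3.90 and 3.69. At the first, H3K18ac was 4.15 in C4-2B and 2.69 in C4-2BER, and at the third, in a KAT6B intron, it went from 2.85 to 3.77. In an intron of HDAC9 H3K27ac was 3.74 and H3K18ac 5.23 and 3.35, and in an intron of NCOR1, a corepressor gene, 3.68, with H3K18ac of 3.56 and 3.24.

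The lost regions were spread over 4691 nearest genes, 2785 of which had 1 and 38 of which had at least 10. PTPRN2, a phosphatase-like protein of secretory vesicles, had the most, 28 of its 48 distal peaks. They were all weak, with H3K27ac folds of 2.15 to 2.86, and H3K18ac was lower at 26. KCNMA1, the pore-forming subunit of the BK potassium channel, had 24 of 45, with H3K27ac of 2.04 to 5.51, and H3K18ac was lower at all 24, with log2 ratios of -2.57 to -0.06. Some of these shared an H3K18ac peak, as did other regions: 8991 lost regions stood on 8731 C4-2B and 8860 C4-2BER H3K18ac peaks.

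TBC1D22A, which encodes a protein with a Rab GTPase-activating domain, had 24 of 51, LRRC4C, a synaptic adhesion gene, 21 of 51, MKLN1, the gene of muskelin, 19 of 40, and KCNQ1, a potassium channel gene, 19 of 29. Their median H3K18ac log2 ratios were -0.30, -0.52, -0.33 and -0.33. Many of these genes are long, and their number of lost regions is to be read beside their number of distal peaks.

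Neighbouring lost regions formed 992 stretches of at least 2 with gaps of no more than 20 kb and no C4-2BER H3K27ac peak in between, holding 2223 regions (24.7%). The longest by number held 7 regions over 61329 bp at chr20:62501450-62562778, across the lncRNA gene MIR1-1HG, with H3K27ac folds of 2.38 to 2.51 and lower H3K18ac at all 7. A stretch of 6 lay in MKLN1 at chr7:131382123-131418375, with H3K27ac of 2.10 to 7.99 and lower H3K18ac at 4. Another of 6 lay at SLC15A2, a peptide transporter gene, at chr3:121942864-121980712, with lower H3K18ac at 5.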

How the data were processed

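H3K27ac and H3K18ac ChIP-Seq of C4-2B and C4-2BER cells was used, with groups taken from the sample labels. The authors aligned reads to GRCh38 with bowtie2, filtered them, merged the replicates and called broad peaks with macs2. The submitters' processing notes name Bowtie2 2.2.3 and Trimmomatic 0.33. Each of the 4 deposited lists gives, for each peak, the fold enrichment (a ratio to local background) and significance as −log10 of the p-value and q-value. Fold and q-value were used. The lists hold no counts, so the depth is unknown.

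Peaks on 24 chromosomes were used as deposited, and 0 ran past a chromosome end. TSSs and gene types came from GENCODE release 44, and GC content and motifs from GRCh38. The members, gene lists and motifs were chosen with earlier results of these data known. The genes and regions to be named were the 8 strongest members, the 6 genes nearest to most members, up to 5 members per gene list, and 4 each for the highest H3K18ac, its largest rises and falls and the largest distance from C4-2BER H3K27ac, with the 3 longest stretches. Results for some genes and motifs are not reported here. Others named were picked after their values were seen. Shares have 95% Wilson and medians 95% order-statistic intervals. No test was made, since the lists hold 1 pooled value per region. The rescaled H3K18ac ratio is the distance from a robust line through all shared peaks. The selection was tested on simulated lists with 385 planted members, of which 385 were found. Python 3.11.15, pandas 2.3.3, numpy 2.4.6, scipy 1.17.1, statsmodels 0.14.6 and pysam 0.24.0 were used.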

Additional observations from a re-analysis of the deposited data

How the results depend on the processing

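The H3K18ac ratio stayed negative under all 9 alternatives tried for it. Restricting every list to peaks with −log10 q of 5 or more left 1663 regions, with a median log2 ratio of -0.33, an H3K27ac fold of 4.19, C4-2BER H3K27ac elsewhere on the H3K18ac peak at 10.5%, GC content of 50.4%, the forkhead motif in 10.5% and androgen-induced genes nearest to 1.08%. A C4-2B H3K27ac fold of at least 4 left 956, with -0.65, 4.95, 3.35%, 47.2%, 12.1% and 1.26% in the same order. Equal numbers of highest-fold peaks left 4067, with -0.33, 4.34, 5.46%, 49.7% and 11.3% for the first 5 values. Leaving out regions with C4-2BER H3K27ac within 5000 bp left 5270, with -0.35, 2.73, 0.607%, 54.9% and 10.3%. The GC content was thus lower where only stronger peaks were taken, while among weak peaks that of lost regions was above that of kept peaks. Beyond 5000 bp from any TSS the fold was 2.67 and the share with H3K27ac elsewhere 14.7%. Median GC content was 55.4% with H3K18ac over at least 50% of the peak and 55.5% with gene starts in place of all TSSs. The rescaled H3K18ac ratio was -0.23. The forkhead share was 4.95% in the central 300 bp and, in an alternative chosen after seeing the data, 6.26% without the recurrent sequence. The other 21 values stayed within 1.5 times the number of regions reported or within the interval of the reported value. No paired analysis was possible because the lists are pooled over libraries and carry no replicates, and for the same reason no library could be left out in turn. The depth of the libraries is unknown, so whether a missing C4-2BER peak is a lower level or a missed call could not be settled for single weak regions.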
